A study of Mus musculus with 6 samples.

Results

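The 35 genes described here encode the nuclear receptor PPARA, genes under its control and enzymes of fatty acid oxidation and ketone handling in mouse liver. They were taken by gene symbol from a table of read counts for 52550 genes. All 35 passed the filter on low counts, which left 14031 genes for testing. The livers came from male mice 8 weeks old that had been on MCD for 1 week, a diet without methionine and choline that makes fat accumulate in the liver. Of the 6 livers, 3 were from mice labelled Slc7a11-LTG (TG), which carry a transgene for Slc7a11, the light chain of the cystine/glutamate exchanger, and 3 were from mice without it, labelled as controls or WT. Both groups had the same diet, so the comparison addresses what the transgene changes under MCD, and no liver came from a mouse on another diet. The transgenic mice are described without a promoter, strain or number of founder lines, which were not given in the sources used here.

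PPARA is a transcription factor that binds fatty acids and pairs with the retinoid X receptor on repeated DNA elements near its targets. In liver it is best known for the response to fasting, when fatty acids from adipose tissue are taken up, coupled to coenzyme A and oxidised. Mitochondria shorten most of these acyl chains and turn the acetyl-CoA into ketone bodies, peroxisomes shorten very long and dicarboxylic chains, and cytochrome P450 enzymes of the Cyp4a family in the endoplasmic reticulum hydroxylate the far end of the chain.

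The targeted gene followed the labels. Slc7a11 had 72729, 24359 and 57242 counts in TG 1, TG 2 and TG 3, against 46, 44 and 204 in WT 1, WT 2 and WT 3. Total counts per library lay between 16016640 and 17463329, and a count of 3, taken as the limit of detection, corresponded to 0.172 to 0.187 CPM (counts relative to library size, here adjusted between libraries by the TMM method). Hepatocyte identity was evident in each library, with 69209 to 136453 CPM of albumin (Alb), and markers of adipocytes, which use many of the same genes, summed to at most 1.71 CPM. Markers of macrophages summed to 2485, 4247 and 769 CPM in the TG livers and to 541, 452 and 758 in the WT livers. Markers of neutrophils summed to 157, 284 and 5.33 CPM in TG and to 7.68, 2.80 and 5.51 in WT. TG 1 and TG 2 thus stood apart from the other 4 livers, including TG 3, in their content of immune cell transcripts. Bulk RNA was measured, in which fewer cells of a type and less RNA per cell cannot be told apart.

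Some of these genes stand in clusters of near copies, and their sequences decide how far each can be read on its own. Cyp4a14, Cyp4a10, Cyp4a31 and Cyp4a32 lie side by side between positions 115486200 and 115621602 of chromosome 4 (mm10, GENCODE annotation). The coding sequences of Cyp4a10, Cyp4a31 and Cyp4a32 are 96.0% to 97.2% identical to each other, while Cyp4a14 shares 75.9% to 76.4% with them. The first 60 coding bases of the 3 close copies are shown here as an example of how few bases set them apart. Capitals mark the 3 positions at which they are not all alike, and within this stretch only these positions can assign a read.
Cyp4a10: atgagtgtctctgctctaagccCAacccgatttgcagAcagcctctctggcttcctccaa
Cyp4a31: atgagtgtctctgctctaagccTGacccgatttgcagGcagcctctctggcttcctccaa
Cyp4a32: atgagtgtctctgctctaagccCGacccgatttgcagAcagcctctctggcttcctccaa
Of all stretches of 100 bases in the annotated transcripts of Cyp4a32, 18.2% occur unchanged in another gene, against 12.2% for Cyp4a10, 7.33% for Cyp4a31 and 0% for Cyp4a14. The peroxisomal thiolases Acaa1a and Acaa1b, on chromosome 9, form a similar pair with 96.5% identical coding bases. Their first 60 coding bases differ at 1 position, given in capitals.
Acaa1a: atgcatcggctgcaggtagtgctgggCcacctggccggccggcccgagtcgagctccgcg
Acaa1b: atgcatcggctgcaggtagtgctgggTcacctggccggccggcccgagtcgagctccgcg
The thioesterases Acot1 and Acot2, neighbours on chromosome 12, are 95.6% identical where their coding sequences align. With the counting program and its treatment of reads with several matches not given in the sources used here, levels of Cyp4a10, Cyp4a31, Cyp4a32, Acaa1a, Acaa1b, Acot1, Acot2 and Acot3 are uncertain as values of single genes. Acadvl shares 42.9% of its exon bases with Dvl2 on the opposite strand, and without a stated strand setting the reads of the 2 genes cannot be told apart there.

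PPARA binds a direct repeat with 1 base between its copies, written here as AGGNCANAGGNCA. In the RefSeq promoter windows (GRCm38.p6, 250 bases before to 50 after the start), this pattern was found on either strand in 125 of 32851 windows, or 0.381%. Windows were at hand for 28 of the 35 genes, 32 windows in all, and 1 of them held the pattern. It was that of Fabp1 (chr6:71199629-71199928, plus strand, start of the match 67 bases before the gene's start), shown with the match in capitals on the opposite strand.
Fabp1: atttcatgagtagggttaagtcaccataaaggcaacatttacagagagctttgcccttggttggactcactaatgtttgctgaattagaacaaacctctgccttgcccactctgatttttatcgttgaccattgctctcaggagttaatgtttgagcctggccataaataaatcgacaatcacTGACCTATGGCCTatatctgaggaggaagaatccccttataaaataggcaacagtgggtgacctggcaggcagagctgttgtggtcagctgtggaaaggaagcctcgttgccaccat
The single copy AGGTCA, which is part of some matches to the longer pattern, was found in 9 of the 32 windows and in 16.3% of all windows. The 9 windows belonged to Acadm, Acadvl, Acot3, Acot4, Cd36, Cpt1a, Creb3l3 and Fabp1. The window of Acot4 (chr12:84038129-84038428, plus strand), the gene with the smallest p among the 35, is shown with that copy in capitals.
Acot4: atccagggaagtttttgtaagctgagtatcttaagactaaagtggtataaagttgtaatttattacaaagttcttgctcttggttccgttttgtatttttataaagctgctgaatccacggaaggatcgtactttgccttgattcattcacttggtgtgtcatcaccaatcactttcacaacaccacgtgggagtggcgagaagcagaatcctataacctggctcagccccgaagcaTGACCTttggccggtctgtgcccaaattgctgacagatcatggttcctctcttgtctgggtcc
Hadha and Hadhb, which encode the subunits of the mitochondrial trifunctional protein, are transcribed away from each other on chromosome 5. The window of Hadhb (chr5:30155003-30155302, plus strand) shares 228 of its 300 bases with that of Hadha, marked by capitals.
Hadhb: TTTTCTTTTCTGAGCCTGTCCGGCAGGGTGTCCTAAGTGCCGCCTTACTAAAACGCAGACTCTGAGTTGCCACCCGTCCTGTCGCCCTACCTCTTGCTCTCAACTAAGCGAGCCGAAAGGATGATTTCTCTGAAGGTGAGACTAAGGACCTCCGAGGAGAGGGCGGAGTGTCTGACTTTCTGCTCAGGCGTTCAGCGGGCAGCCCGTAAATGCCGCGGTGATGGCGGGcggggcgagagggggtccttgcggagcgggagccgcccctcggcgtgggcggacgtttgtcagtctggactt
Such matches describe these windows and say nothing of binding in these livers. Windows for Cyp4a10, Cyp4a14, Cyp4a31, Vnn1, Decr1, Acaa2 and Crat were not used here.

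None of the 35 genes differed between TG and WT livers by edgeR's quasi-likelihood test with Benjamini-Hochberg adjustment over all genes tested. The smallest adjusted p of the 35 with edgeR was 0.413, for Acot4. The same test called 0 of 14031 genes, a background of 0%. DESeq2 called 373 of 13741 genes with an adjusted value, 2.71%, and again none of the 35. At an unadjusted p under 0.05, 2 of the 35 genes passed, or 5.71%, against a background of 11.1% of all genes tested. The pair was Cd36, higher in TG (background 8.68%), and Acot4, lower in TG (background 2.37%). The direction was more uniform than the size: 30 of the 35 genes, or 85.7%, had a log2 fold change below 0, against 53.8% of all genes tested. Their median log2 fold change was -0.36, against -0.03 for all genes tested. Of the 11 hepatocyte markers tested, 8 also had a log2 fold change below 0, with a median of -0.44 and a range of -0.72 to 1.09. At an unadjusted p under 0.05, 1 of the 11 was higher in TG (background 8.68%) and 0 were lower (background 2.37%). Acot4 was also the single one of the 35 whose 3 TG values all lay to one side of its 3 WT values, 2.86% of the 35 against 15.4% of all genes tested, and 6.14% in that direction. These shares are descriptions, since the levels of these genes go together among livers. Leaving out WT 3 brought the number of the 35 at an unadjusted p under 0.05 from 2 to 10 (28.6%), while the share over all genes tested moved to 16.1%. Leaving out TG 1 brought it to 4 (11.4%), against 7.8% of all genes. Without TG 2 it was 0, against 5.28% of all genes, and without WT 2 it was 0, against 7.1%. The median of the 35 was -0.69 without TG 1, -0.64 without WT 3, -0.23 without TG 2 and -0.15 without WT 2.

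**Figure D1:**
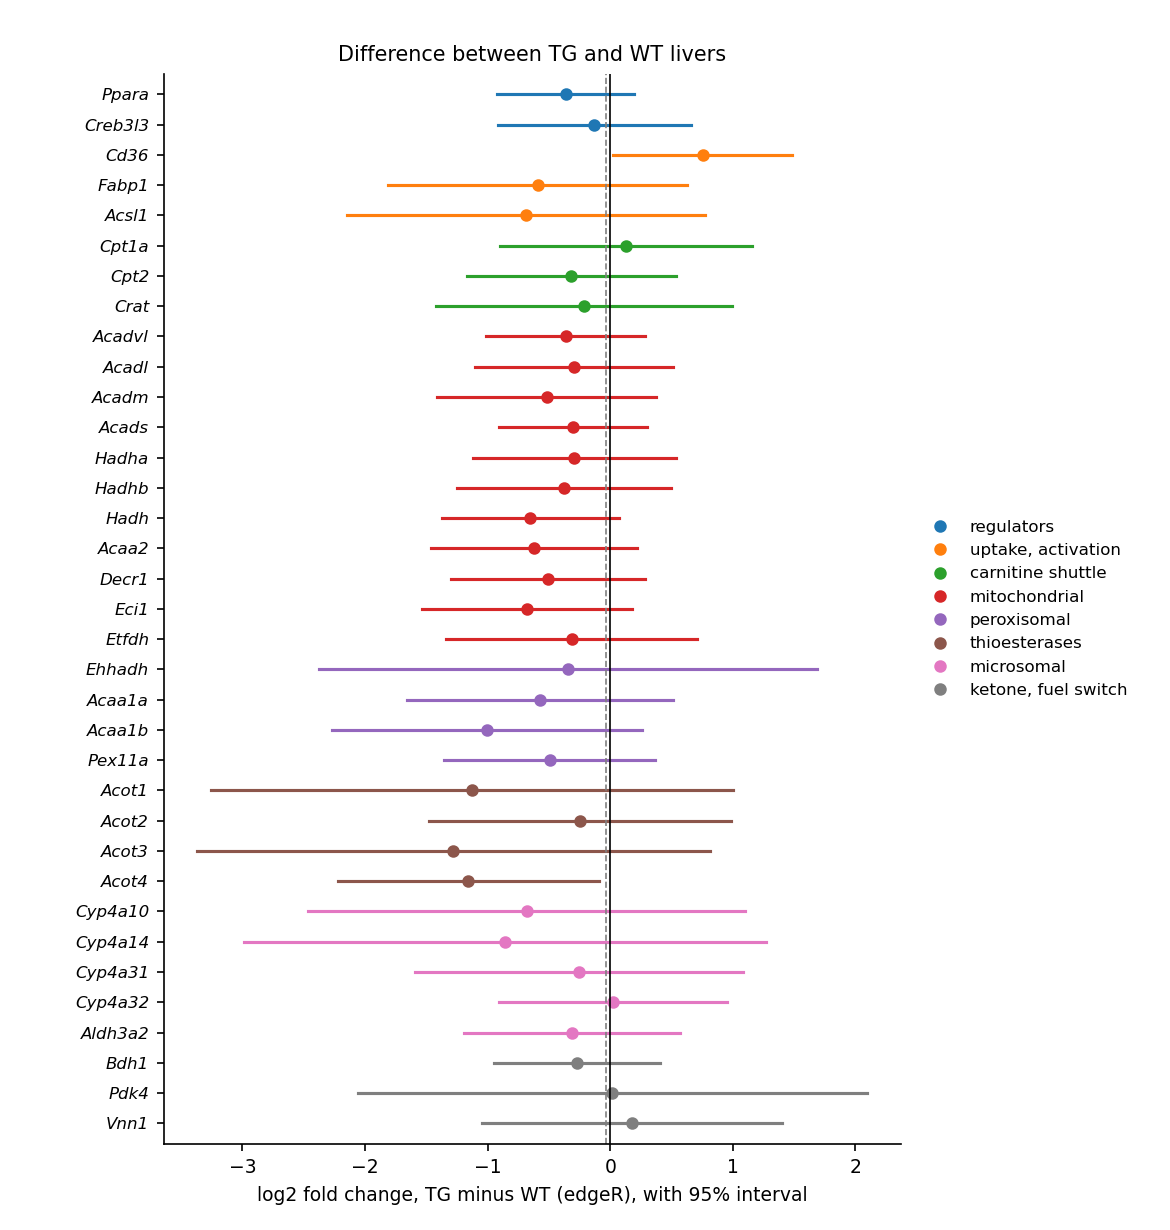
Log2 fold change of each of the 35 genes, TG minus WT, from edgeR (points) with its 95% interval (lines), coloured by role; the dashed line is the median of all genes tested, -0.03. Points lie below 0 for 30 genes, and the intervals of Cd36 and Acot4 do not cross 0 before adjustment.

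The larger differences were between livers of the same genotype. For the 35 genes the median SD within groups was 0.60 on the log2 scale, against 0.31 for all genes tested. The median ratio of the highest to the lowest liver was 1.90 within TG and 2.54 within WT, against 1.38 and 1.52 for all genes tested. For 26 of the 35 genes (74.3%) the fold change between groups was smaller than the SD within groups, as it was for 55.7% of all genes tested. WT 2 had the highest level of 24 genes, WT 1 of 7 and TG 1 of 4. WT 3 had the lowest level of 15 genes, TG 2 of 14, TG 3 of 3, WT 1 of 2 and WT 2 of 1. The summed level of the 35 genes was 29906, 11314 and 12783 CPM in TG 1, TG 2 and TG 3, and 33158, 34992 and 11369 CPM in WT 1, WT 2 and WT 3. TG 2, TG 3 and WT 3 were therefore low and TG 1, WT 1 and WT 2 high, an order that cuts across genotype. In 28 of the 35 genes (80%) the 3 lowest values were those of TG 2, TG 3 and WT 3, an arrangement found in 10.7% of all genes tested; this arrangement was noticed after the values were seen, and no test was made of it. The labels give no feeding state, time of day or batch for the livers. In the sample titles the number of WT 3 lies apart from those of the other livers, and the labels tie no batch to these numbers.

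**Figure D2:**
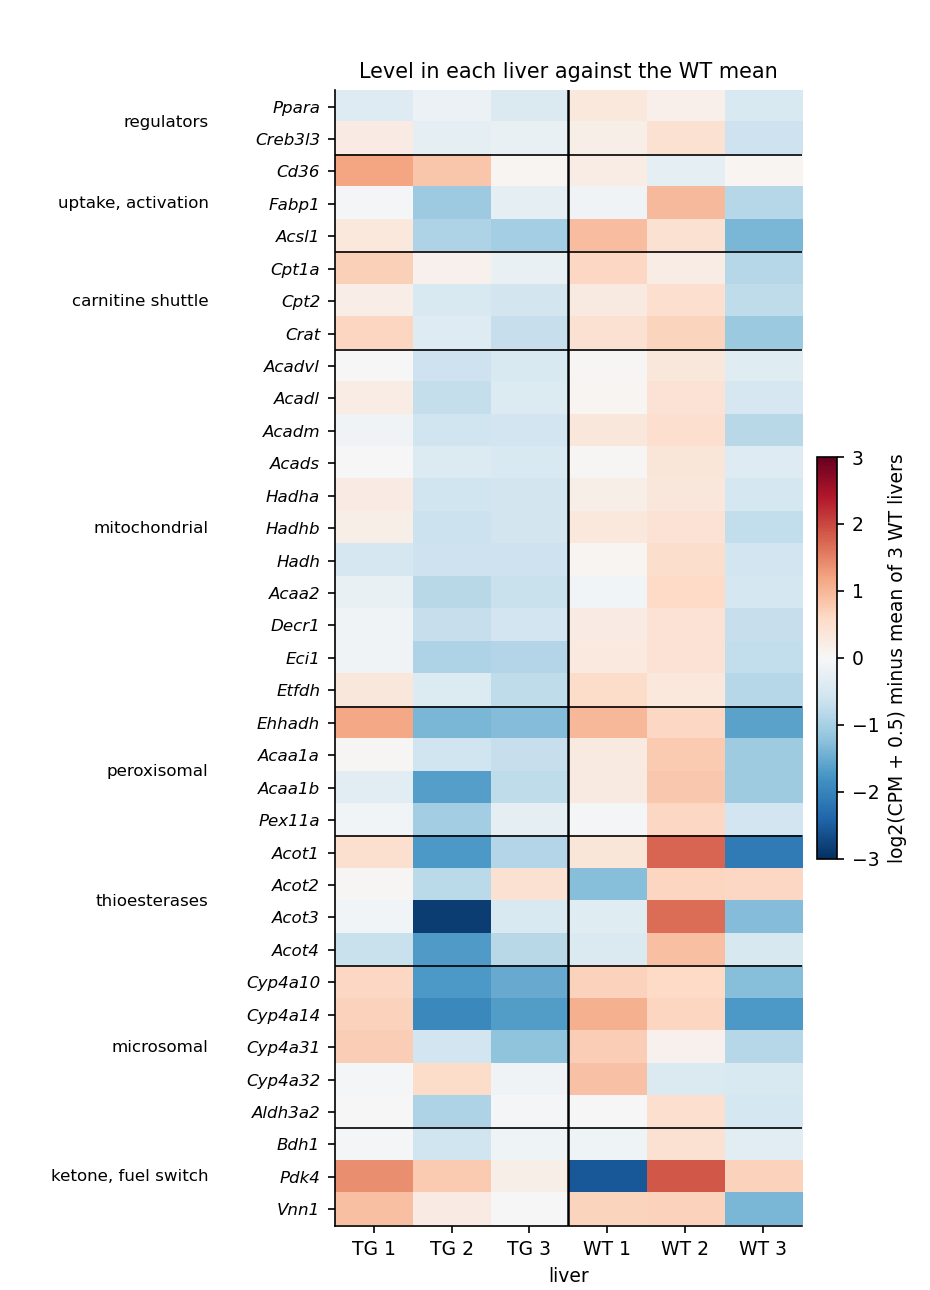
Level of each of the 35 genes (rows, grouped by role) in each liver (columns), as log2(CPM + 0.5) minus the mean of the 3 WT livers; red is higher, blue lower. TG 2, TG 3 and WT 3 are blue in most rows. In Ppara, Cd36, Acot2, Acot4, Cyp4a32, Bdh1 and Pdk4 they are not the 3 lowest livers.

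The sum of the hepatocyte markers ran in a similar order. It was 107848, 101254 and 91551 CPM in TG 1, TG 2 and TG 3, and 138194, 175771 and 94483 CPM in WT 1, WT 2 and WT 3, with none of the 11 matched markers at 0 in all livers. The sums ran from 91551 to 175771 CPM for the markers and from 11314 to 34992 CPM for the 35 genes. Single genes weigh heavily in them, Alb among the markers and Cyp4a14 among the 35, so medians are given as well. The median of the hepatocyte markers against the WT mean was -0.02, -0.47 and -0.42 in the TG livers and 0.08, 0.42 and -0.57 in the WT livers on the log2 scale. For the 35 genes it was 0.04, -0.63 and -0.55 in TG and 0.26, 0.50 and -0.73 in WT. The part of hepatocyte content in the levels of the 35 genes was not tested.

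**Figure D3:**
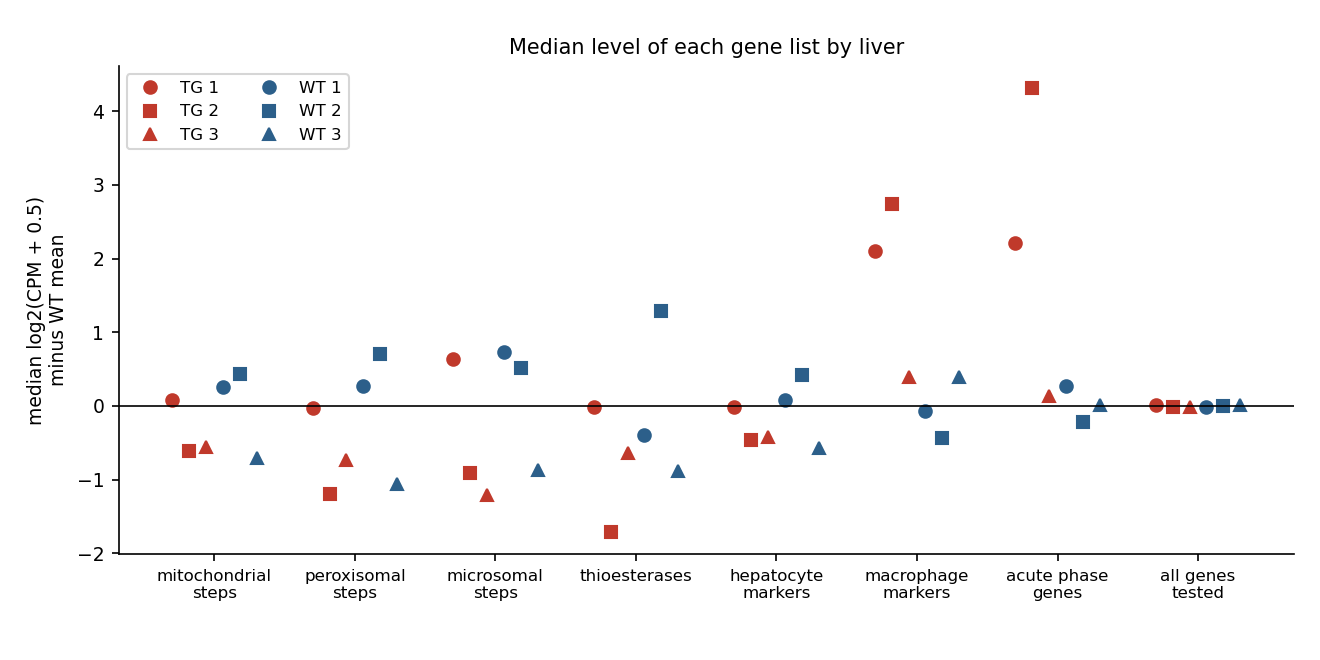
Median of each gene list in each liver, as log2(CPM + 0.5) minus the mean of the 3 WT livers, for 4 groups of the 35 genes, hepatocyte and macrophage markers, acute phase genes and all genes tested. The mitochondrial, peroxisomal, microsomal and hepatocyte lists place TG 2, TG 3 and WT 3 lowest, while macrophage markers and acute phase genes are high in TG 1 and TG 2.

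The receptor itself and its partner in the fasting response did not pass the test. Ppara was at 121, 139.7 and 116 CPM in TG 1, TG 2 and TG 3 and at 195, 175 and 115 CPM in WT 1, WT 2 and WT 3. WT 1 and WT 2 lay above the TG livers and WT 3 just below all of them. Its log2 fold change was -0.36 with an SE of 0.24 (95% interval -0.92 to 0.19, unadjusted p = 0.168). Creb3l3, a transcription factor held in the endoplasmic reticulum that acts with PPARA in fasting liver, ranged from 313 to 658 CPM with a log2 fold change of -0.13. Its sign turned to 0.03 when libraries were scaled by their totals alone. Of 18 further receptors and coregulators on which PPARA depends or which act beside it, 0 had an unadjusted p under 0.05, and their median log2 fold change was 0.01. The smallest p-values among them were those of the coactivator Ppargc1b (log2 fold change -0.66), the bile acid receptor Nr1h4 (-0.34) and the deacetylase Sirt1 (-0.32), none of them under 0.05 before adjustment.

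Among the genes of uptake and activation, Cd36 went the other way from the rest. Cd36, a surface protein that takes up fatty acids and is made by macrophages and endothelium as well as by steatotic hepatocytes, was at 286, 225 and 131 CPM in the TG livers and at 147, 103 and 132 CPM in the WT livers. TG 1 and TG 2 were above the WT livers and TG 3 was among them, so the groups overlapped. This gave a log2 fold change of 0.75 (SE 0.31, 95% interval 0.02 to 1.48, unadjusted p = 0.0444). The same livers, TG 1 and TG 2, were high in macrophage markers, while TG 3 was near WT 3 in their sum. Of these markers, 15 of 15 had an unadjusted p under 0.05 in the same direction (background 8.68%). After adjustment edgeR called 0 of them and DESeq2 13. The part of macrophages in the level of Cd36 was not tested. Fabp1, the abundant fatty acid carrier of the hepatocyte cytosol whose promoter window is shown above, ranged from 809 CPM in TG 2 to 3392 CPM in WT 2, and its log2 fold change of -0.59 became 0.04 without WT 2. Acsl1, which couples long-chain fatty acids to coenzyme A, ranged from 427 CPM in WT 3 to 2090.2 CPM in WT 1 (log2 fold change -0.69, SE 0.62).

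The carnitine shuttle carries the acyl groups across the mitochondrial membranes, and none of its 3 genes passed the test. Cpt1a, the gatekeeper enzyme of the outer membrane, was at 1386, 925 and 728 CPM in TG and 1312, 995 and 471 CPM in WT. WT 3 was lowest, and TG 1 and WT 1 were highest and close to each other. Its log2 fold change was 0.13 (SE 0.44, 95% interval -0.90 to 1.16). Cpt2, the enzyme of the inner membrane, and Crat, which exchanges short acyl groups, had log2 fold changes of -0.32 and -0.21, and Crat spanned 62.4 to 214 CPM among the livers.

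All 11 genes of the mitochondrial spiral itself had log2 fold changes below 0, between -0.68 and -0.29, and 0 of the 11 had an unadjusted p under 0.05. With the 3 genes of the carnitine shuttle, the median of these 14 mitochondrial steps was -0.34, with -0.68 without TG 1, -0.63 without WT 3 and -0.18 without WT 2. The smallest p was that of Hadh, the dehydrogenase for medium and short chains, which was at 299, 279 and 275 CPM in TG and 441, 613 and 286 CPM in WT. The TG livers lay close together and WT 3 lay among them, while WT 2 was highest. Its log2 fold change was -0.65 (SE 0.31, 95% interval -1.37 to 0.07, unadjusted p = 0.07). Eci1, an isomerase needed for unsaturated chains, was at 137, 77.5 and 81.2 CPM in TG and 183, 202 and 88.8 CPM in WT (log2 fold change -0.68, SE 0.37). Acaa2, the thiolase that releases acetyl-CoA, was at 761, 499.7 and 562 CPM in TG and 846, 1342 and 619 CPM in WT (log2 fold change -0.62, SE 0.36). For both genes TG 2 was the lowest liver and WT 2 the highest, and WT 3 lay among the TG livers.

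The dehydrogenases that open each round act on chains of falling length. The 4 enzymes, Acadvl for very long, Acadl for long, Acadm for medium and Acads for short chains, had log2 fold changes of -0.36, -0.30, -0.52 and -0.30. Acadm was at 589.8, 423 and 427 CPM in TG and 805, 899 and 360.5 CPM in WT. WT 3 was the lowest of the 6, below all TG livers, while WT 1 and WT 2 were above them. The 95% interval of its log2 fold change was -1.41 to 0.37. Etfdh, which hands the electrons of these enzymes to the respiratory chain, ranged from 231 CPM in WT 3 to 604 CPM in WT 1. Decr1, a reductase for unsaturated chains, had a log2 fold change of -0.51 (SE 0.34).

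Hadha and Hadhb, the subunits of the trifunctional protein that share the promoter region shown above, kept a similar ratio in the 6 livers. Hadha was at 730.4, 406 and 425 CPM in TG and 703, 779.6 and 432 CPM in WT, so TG 1, WT 1 and WT 2 lay well above the other 3 livers. Its log2 fold change was -0.29 (95% interval -1.12 to 0.53), and that of Hadhb was -0.38. The ratio of Hadha to Hadhb CPM was 2.05, 1.99 and 1.97 in TG and 1.80, 1.83 and 2.27 in WT, while each gene varied by up to 1.81-fold (Hadha) and 2.23-fold (Hadhb) among WT livers. Of the 100-base stretches of Hadhb, 14.8% also occur in other genes.

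None of the 4 peroxisomal genes passed the test, and their median log2 fold change was -0.53. That median was -1.08 without TG 1, -0.88 without WT 3 and -0.17 without WT 2. Ehhadh, the bifunctional enzyme of peroxisomal oxidation and a strongly PPARA-responsive gene, was at 3029.9, 524 and 549 CPM in TG and 2694, 2062 and 444 CPM in WT. The values formed a high set of TG 1, WT 1 and WT 2 and a low set of TG 2, TG 3 and WT 3, with a ratio of highest to lowest of 5.78 within TG and 6.07 within WT. Between groups the log2 fold change was -0.34 (95% interval -2.37 to 1.69), and it ran from -1.69 without TG 1 to 0.13 without WT 1. Acaa1b was at 1249, 502 and 926 CPM in TG and 1901, 2729.7 and 746 CPM in WT. TG 2 was lowest, WT 3 lay among the TG livers and WT 2 was highest (log2 fold change -1.01, SE 0.54, unadjusted p = 0.103). Its near copy Acaa1a was at 316, 203 and 190.0 CPM in TG and 375, 532 and 148 CPM in WT (log2 fold change -0.57). The ratio of Acaa1b to Acaa1a was 3.96, 2.48 and 4.87 in TG and 5.08, 5.13 and 5.04 in WT, lower in each TG liver than in each WT liver; this ratio was picked after the values were seen and was not tested. Pex11a, which divides peroxisomes, was at 183, 95.2 and 162 CPM in TG and 189.9, 299.6 and 131 CPM in WT, with TG 2 lowest and WT 2 highest (log2 fold change -0.49, SE 0.37).

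The acyl-CoA thioesterases, which split acyl-CoA back into free fatty acid and coenzyme A, had a median of -1.14 on the log2 scale, which rested on WT 2: without it, 3 of the 4 genes lay between -0.02 and 0.03. Acot4, the peroxisomal enzyme for dicarboxylic chains, was at 149.9, 73.1 and 134 CPM in TG and 176, 448 and 172 CPM in WT. Each TG liver was below each WT liver, with TG 1 at 149.9 and WT 3 at 172 CPM nearest to each other and WT 2 far above the rest. Mean levels were 119 ± 40.6 CPM in TG and 265 ± 158 CPM in WT (SD, n = 3 livers each). The log2 fold change was -1.16 (SE 0.46, 95% interval -2.22 to -0.09, unadjusted p = 0.037), and -0.55 without WT 2. Of its exon bases, 9.71% are shared with other annotated genes. Acot1, in the cytosol, ranged from 21.7 CPM in WT 3 to 323 CPM in WT 2, and Acot3, in peroxisomes, from 10 CPM in TG 2 to 242 CPM in WT 2. Without WT 2 their log2 fold changes moved from -1.13 to -0.02 and from -1.28 to 0.03. Acot2, in mitochondria, did not follow the common order: WT 1 was lowest at 40.6 CPM, and TG 3, WT 2 and WT 3 were highest at 136 to 156 CPM.

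The Cyp4a genes held the widest absolute range of the 35. Cyp4a14 alone made up 38.9% of the summed CPM of the 35 genes in WT 1 and 14.2% in TG 2. It was at 9947, 1605 and 1926 CPM in TG and 12893, 9673 and 1880.1 CPM in WT. TG 1, WT 1 and WT 2 were at 9673 to 12893 CPM and the other 3 livers at 1605 to 1926 CPM. The log2 fold change was -0.86 (SE 0.91, 95% interval -2.99 to 1.27), and it ran from -2.20 without TG 1 to -0.36 without WT 1. Cyp4a10, with 1561, 303 and 354 CPM in TG and 1623, 1523 and 414 CPM in WT, had the same high and low livers (log2 fold change -0.68, SE 0.76). Cyp4a31 was at 352, 142 and 90.7 CPM in TG and 352, 231 and 116 CPM in WT, also with TG 1, WT 1 and WT 2 highest (log2 fold change -0.26, SE 0.57). Cyp4a32, the lowest of the 4, was at 45.4, 68.3 and 42.8 CPM in TG and 86.0, 34.4 and 33.6 CPM in WT. It departed from its neighbours in that TG 2 was the second highest liver and WT 2 among the lowest (log2 fold change 0.02, SE 0.40). Aldh3a2, which oxidises the fatty aldehydes formed from the hydroxylated chains, was at 611, 321 and 593 CPM in TG and 608, 864 and 422 CPM in WT (log2 fold change -0.31). Over the 5 microsomal genes the median was -0.31, with -0.996 without TG 1, -0.59 without WT 3 and -0.22 without TG 2. Of the 5, 0 had an unadjusted p under 0.05.

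**Figure D4:**
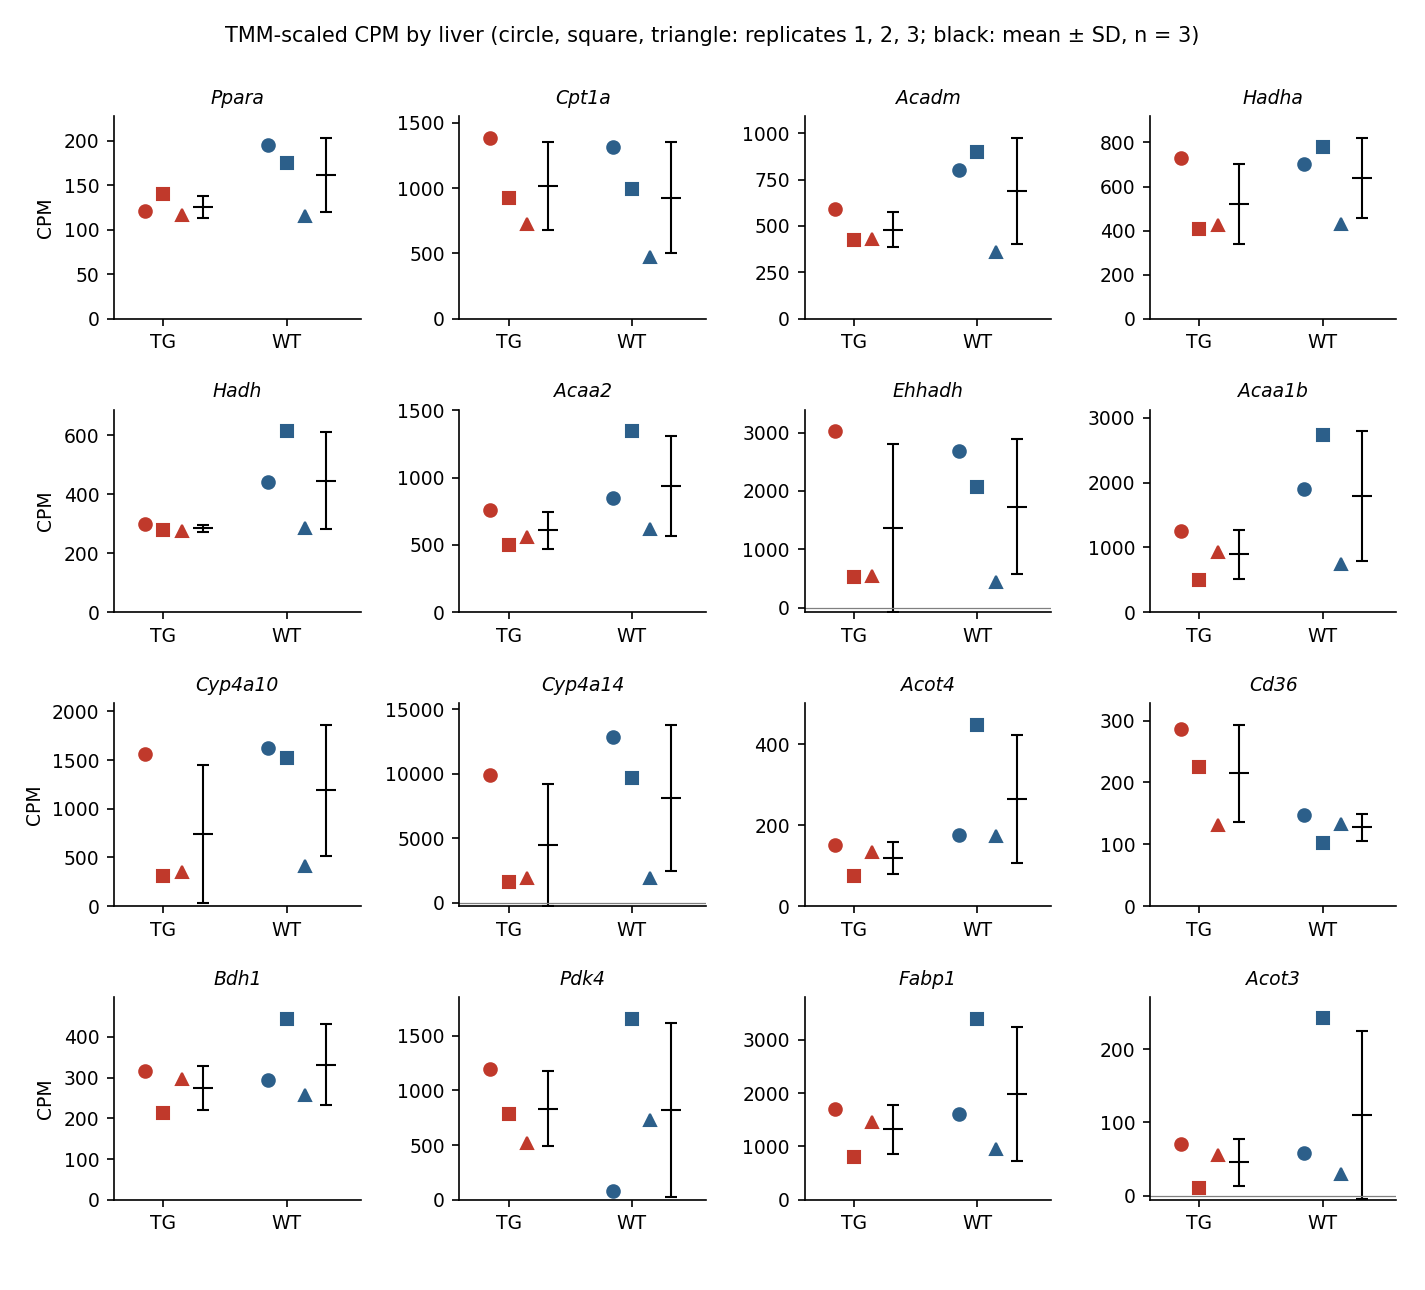
TMM-scaled CPM of 16 of the 35 genes in each liver; red symbols are TG, blue symbols WT, circles, squares and triangles are replicates 1, 2 and 3, and black bars are the mean ± SD (n = 3). For Ehhadh, Cyp4a10 and Cyp4a14 the values of both genotypes split into a high and a low set, and for Acot4 the TG livers lie below the WT livers.

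Bdh1, which interconverts acetoacetate and 3-hydroxybutyrate, was at 316, 214 and 296 CPM in TG and 295, 444 and 257 CPM in WT. The groups overlapped throughout, and only WT 2 lay above the highest TG liver (log2 fold change -0.27, SE 0.29, 95% interval -0.95 to 0.41). Pdk4, a kinase that shuts off pyruvate oxidation when fatty acids are burned, was at 1198, 784 and 515 CPM in TG and 77.4, 1656 and 731 CPM in WT. WT 1, high in most of the other genes, was by far the lowest liver for Pdk4, at a ratio of 21.4 to WT 2. The log2 fold change was 0.02 (SE 0.89, 95% interval -2.06 to 2.10), and it ran from -0.52 without WT 1 to 1.04 without WT 2. Vnn1, a pantetheinase and a sensitive PPARA target, ranged from 32 CPM in WT 3 to 158 CPM in TG 1, with a log2 fold change of 0.17 (SE 0.52).

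Levels between genes were compared per kilobase of exon (RPKM, over the union of annotated exons, which understates genes with retained introns in their models). Averaged over the 6 livers, Fabp1 at 2987 RPKM and Cyp4a14 at 2430.1 RPKM had the highest means of the 35, and Cyp4a14 exceeded Fabp1 in TG 1 (3824 against 3072 RPKM) and in WT 1 (4957 against 2906 RPKM). Acaa1b at 684, Ehhadh at 520.1, Acaa2 at 509 and Cyp4a10 at 457 RPKM followed. In TG 2, where Fabp1 was at 1463 RPKM, Cyp4a14 was at 617 RPKM and Ehhadh at 176 RPKM, below Acaa2 at 329.6 RPKM. Ppara itself was at 37.5 RPKM, and the lowest mean was that of Acot3 at 22.6 RPKM, although Acot1 was lower than Acot3 in TG 3 and WT 3 and Acot3 reached 70.4 RPKM in WT 2. Neighbours in the middle of the list, such as Decr1 at 63.5, Hadha at 66.4 and Acaa1a at 66.6 RPKM, differed by less than their spread between livers.

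No gene of the wider pathway lists passed the adjusted threshold of edgeR. In the ketogenesis, mitochondrial, peroxisomal and PPARA target lists most genes had a log2 fold change below 0, as had 53.8% of all genes tested. Of 8 further ketogenesis genes, 5 had a log2 fold change below 0, the median was -0.36, and 1 had an unadjusted p under 0.05, higher in TG (background 8.68%). It was Oxct1, the enzyme with which other tissues use ketone bodies, at 10.3, 18.8 and 5.54 CPM in TG and 5.08, 3.25 and 5.30 CPM in WT (log2 fold change 1.34, SE 0.46). Oxct1 followed the livers with high immune cell markers, TG 1 and TG 2, and the part of those cells was not tested. Acat1, which supplies acetoacetyl-CoA, was at 404, 277 and 258 CPM in TG and 622, 740.5 and 302 CPM in WT (log2 fold change -0.83, SE 0.38), with WT 3 again among the TG livers. The monocarboxylate transporter Slc16a1 had a log2 fold change of 0.37.

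Of 19 further mitochondrial oxidation genes, 17 had a log2 fold change below 0, with a median of -0.41. The 1 gene with an unadjusted p under 0.05 (background 2.37% for lower in TG) was Acad10, a dehydrogenase, at 24.2, 24.6 and 27.9 CPM in TG and 41.4, 41.9 and 30.7 CPM in WT, each TG liver below each WT liver (log2 fold change -0.57, SE 0.17). Etfa, a subunit of the electron carrier that feeds Etfdh, and Eci2, an isomerase, had log2 fold changes of -0.58 and -0.54 and were likewise lower in each TG liver. Of 31 further peroxisomal genes that passed the filter, out of 32, 28 had a log2 fold change below 0, with a median of -0.33, and 4 had an unadjusted p under 0.05, all lower in TG. Among them were Pecr, Amacr and Pex2. Pecr, a reductase of unsaturated acyl-CoA, was at 83.4, 98.4 and 116 CPM in TG and 171, 228 and 128 CPM in WT (log2 fold change -0.82, SE 0.26). Amacr, a racemase for branched chains, had a log2 fold change of -0.52. These 4 of 31 genes compare with the background of 2.37% for that direction, although none passed the adjusted threshold with edgeR or DESeq2.

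Of 10 further Cyp4 genes, 2 had an unadjusted p under 0.05, both higher in TG, where the background was 8.68%. Cyp4f18, which inactivates leukotrienes in myeloid cells, was at 3.64, 4.24 and 0.965 CPM in TG and 0.508, 0.605 and 0.884 CPM in WT. It was high in TG 1 and TG 2, the livers with high neutrophil and macrophage markers, whose part was not tested. Cyp4f16 and Cyp4f15 had log2 fold changes of 0.85 and -0.64. Of 26 further PPARA targets, 18 had a log2 fold change below 0, with a median of -0.30; 1 was higher and 1 lower in TG at an unadjusted p under 0.05, against the backgrounds of 8.68% and 2.37%. Ucp2, a mitochondrial carrier that is abundant in macrophages, was at 123, 157 and 54.2 CPM in TG and 27.9, 27.2 and 29.6 CPM in WT, each TG liver above each WT liver (log2 fold change 1.98, SE 0.37). It was the 1 gene of these lists that DESeq2 called; TG 1 and TG 2 were again highest, and the part of macrophages was not tested. Lpin1, a phosphatidate phosphatase and coactivator of PPARA, was at 130.4, 91.8 and 157 CPM in TG and 112, 346 and 317 CPM in WT, with WT 1 as low as the TG livers (log2 fold change -1.03, SE 0.43). Txnip, an inhibitor of thioredoxin and of glucose uptake, had a log2 fold change of -0.79 and was also lowest in WT 1.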

How the data were processed

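Per the labels' protocols, liver RNA was isolated with Trizol and sequencing libraries were built with a VAHTS Universal V6 kit; the molecule field says genomic DNA, although the values were handled as counts of RNA reads. The deposited table holds raw counts per Ensembl gene, not normalized. TopHat, Cufflinks and mm10 appear in the submitters' processing notes, with the counting program, annotation and strand setting not given in the sources used here. Symbols came from a gene name table (147 identifiers had none), gene models from GENCODE for the same build, promoters from RefSeq.

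Genes were filtered with filterByExpr and compared with edgeR 4.0.16 (R 4.3.3; TMM, robust quasi-likelihood test, two-sided, Benjamini-Hochberg threshold 0.05). The code was also run on simulated data with less spread between livers and larger changes than the 35 genes showed. That run checks the code and says nothing of the power in these data. CPM are TMM-scaled, and log2 levels add 0.5 CPM. Alternatives were DESeq2 1.42.0, limma voom 3.58.1, other scalings and filters, a replicate block and leaving out each library. Genes named outside the 35 were up to 3 per list with the smallest unadjusted p and a mean of at least 1 CPM; the 35 genes, the lists and this rule were chosen with earlier results of these data known, and not every gene it took is reported here. The series' design gives 3 mice per group; an exact permutation test of that size cannot give a p below 0.1. Detection limits cover counting error only.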

Additional observations from a re-analysis of the deposited data

How the results depend on the processing

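None of the 35 genes passed the adjusted threshold under any of the alternatives run. Over all genes tested, DESeq2 called 373 genes, limma voom 1, and leaving out 1 library 0 to 305, with 305 without TG 3. The number of the 35 at an unadjusted p under 0.05 was 4 with DESeq2 (11.4%, against 12.4% of all genes), 0 with the replicate block (against 7.9%) and 0 to 10 with 1 library left out (against 5.28% to 16.1%). Their median log2 fold change stayed below 0, between -0.69 (without TG 1) and -0.15 (without WT 2). Leaving out a library turned signs, with ranges of -1.69 to 0.13 for Ehhadh, -0.996 to 0.17 for Cyp4a31, -0.22 to 0.61 for Cyp4a32, -0.20 to 0.47 for Cpt1a and -0.52 to 1.04 for Pdk4; the signs of Creb3l3, Fabp1, Crat, Acot2, Acot3 and Vnn1 turned as well. Scaling by library totals alone moved the median of all genes by 0.12, left 29 of the 35 genes below 0 and put their median 0.30 below that of all genes, with a sign turned for Creb3l3. The labels do not say whether replicate numbers pair the livers. Same-numbered livers correlated in their deviations from the group means with r of 0.17, -0.24 and 0.12. TG 1 and TG 3 correlated best with the WT liver of their own number, and TG 2 with WT 1 (r of 0.11). With 3 livers per group, whose deviations sum to 0, these values cannot decide whether the numbers pair them. The replicate block called 0 genes, as did the fit without it. With 3 livers per group and a common biological coefficient of variation of 0.329, single genes with a log2 fold change near the median had intervals that crossed 0, such as -0.92 to 0.19 for Ppara.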

Other observations

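Etfb, the partner subunit of Etfa in the electron carrier, was listed at 1.66 to 5.67 CPM, against 232 to 526 CPM for Etfa. Of the exon bases of Etfb, 58.2% are shared with other annotated genes in the annotation used here, with the counting of such bases not given in the sources used here. Fgf21, a hormone made by the liver under PPARA, was at 114, 51.3 and 104 CPM in TG and 21.7, 30.0 and 233 CPM in WT, highest in WT 3, a liver in which most of the 35 genes were low. Both genes were chosen after their values were seen.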
